A study of Mus musculus with 8 samples.

Results

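The genes that encode the proteins of the cytosolic ribosome were followed here in mouse B cell lymphoma cells given a BET inhibitor. The genes were taken by symbol: every gene of the count table whose mouse symbol begins with Rps or Rpl and a number, with Rplp0, Rplp1, Rplp2 and Rpsa, leaving out symbols marked as pseudogenes with -ps and the Rps6k kinases. This gave 92 genes of 43629 in the table. They were 31 genes of the small subunit, 46 of the large subunit including its stalk, 14 paralogs or further copies, and Rps19bp1, which encodes a nucleolar binding partner of a ribosomal protein and is not itself a ribosomal protein. Of the 92, 89 had enough reads to be tested, and Rpl10l, Rpl39l and Rps4l had 0 reads in every library. The 77 genes of the small and large subunit are called subunit genes below, and all 77 were tested.

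The cells were the Eμ-Myc lymphoma lines 1.1 and 1.2, both from C57BL/6 mice and both driven by a Myc transgene under the immunoglobulin heavy chain enhancer, which is active in B lineage cells. Early passage cells of each line were cultured for 2 h with 250 nM JQ1 or with its solvent DMSO. That made 4 groups (line 1.1 DMSO, line 1.1 JQ1, line 1.2 DMSO and line 1.2 JQ1) of 2 RNA-seq libraries, 8 in all. All groups share the transgene and the strain, there was no group without the transgene, and how lines 1.1 and 1.2 relate to each other is not given in the sources used here. Nothing in the labels says that the libraries of a group came from separate cultures, and the p-values then reflect only how these libraries differ, which may be technical.

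The small subunit of the ribosome reads the mRNA, the large subunit joins the amino acids, and both are built in the nucleolus from ribosomal RNA and proteins made in the cytoplasm. Messages of ribosomal proteins are among the most abundant of a growing cell. They begin with a short run of pyrimidines, the 5' terminal oligopyrimidine (TOP) tract, through which mTOR and the RNA-binding protein LARP1 control their translation. Myc is known as an activator of ribosome production in B lineage tumours, and JQ1 displaces the BET proteins, which read acetylated histones, from chromatin. Mouse chromosomes also hold many processed pseudogenes of these genes, copies of the spliced message inserted elsewhere, so that a short read from a ribosomal protein message can match several places.

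Gene counts summed to between 10347453 and 13049877 per library. Of 10 B lineage markers, 7 exceeded 10 CPM, and the summed CPM of the 10 ran from 1970 to 2130 in DMSO libraries and from 1250 to 1430 in JQ1 libraries. No T cell, NK cell or erythroid marker on the lists passed the expression filter, and the 1 myeloid and 1 stromal marker that passed had at most 1.06 CPM. The DMSO replicates of line 1.1 differed more than any other pair, with a chi-square of 4.1 per degree of freedom over genes against 1.36 to 2.14 in the other pairs. Line 1.1 DMSO replicate 2 stood low for many ribosomal protein genes, and the counts of the comparisons are given with and without it.

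Several of these genes had fewer reads than near-identical copies elsewhere in the genome. Rps3a1, a small subunit gene on chromosome 3 (chr3:86137940-86142702, minus strand, GRCm38), had a mean of 85.2 CPM (counts scaled to equal library size). Rps3a2 (chr14:88123017-88123808) and Rps3a3 (chr13:108670603-108671397), which GENCODE lists as processed pseudogenes, had 1137 and 518 CPM. Over the coding sequence, Rps3a2 was identical to Rps3a1 at 99.5% of 792 aligned bases and Rps3a3 at 98.9% of 795. Rpl6l, a processed pseudogene of Rpl6 that is also among the 92, was identical at 98.7% of 871 bases and had 494 CPM, against 83.3 CPM for Rpl6 itself. By contrast Rps27l, a paralog of Rps27 with its own protein, shared 76.3% of 253 bases. Near-identity did not always go with reads on the copy. Rps12l1, identical to Rps12 over all 399 coding bases, had 1.47 CPM against 1788 CPM for Rps12. However, 100% of its exonic bases also lie in exons annotated to other genes, so its reads may not have been counted for it. Rpl37rt, identical to Rpl37 at 99.7% of 294 bases, had 12.3 CPM against 578 CPM for Rpl37. The first 60 coding bases show how near-identical copies differ from a paralog such as Rps27l. Capitals mark bases that differ within a pair, with none in the pair of Rps3a1 and Rps3a2.
Rps3a1: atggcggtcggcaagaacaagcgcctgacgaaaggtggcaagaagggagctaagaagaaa
Rps3a2: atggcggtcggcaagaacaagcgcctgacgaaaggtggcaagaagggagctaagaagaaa
Rpl6: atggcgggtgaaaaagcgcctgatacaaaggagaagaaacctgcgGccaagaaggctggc
Rpl6l: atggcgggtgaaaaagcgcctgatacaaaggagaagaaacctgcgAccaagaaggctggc
Rps27: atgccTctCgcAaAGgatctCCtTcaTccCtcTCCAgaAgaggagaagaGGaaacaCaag
Rps27l: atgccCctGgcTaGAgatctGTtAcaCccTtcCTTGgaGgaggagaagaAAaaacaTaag

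Of the 77 subunit genes, 73 shared at least 20 coding stretches of 50 bases with 1 or more annotated pseudogenes, 568 in all. Those pseudogenes held a median of 17.5% of the reads of their family, meaning the gene and its matching pseudogenes together. In 30 families they held over 50%, and in 21 over 90%. For Rps6, the substrate of S6 kinase, 98.1% of the reads of the family were on pseudogenes, with Gm16409 alone at 742.5 CPM. Gm10275 had 1318 CPM and Rpl12, the gene it matches, 150 CPM. At the other end, Rps3, Rps9 and Rpl23 were among those that had no matching pseudogene by this measure. Values are therefore given for each gene alone and, where it matters, for the family; the second measure was added after the values were seen. How reads with several matches were treated before counting is not given in the sources used here. Whether reads on a pseudogene came from the message of the gene or from the pseudogene itself was not tested.

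The level of the subunit genes per kb of exonic length was uneven when each gene was taken alone. The median was 286 CPM per kb, and the quartiles differed by 17.8-fold. The lowest 3 were Rps15a (4.83 CPM per kb), Rpl21 (5.72) and Rps19 (6.29), the last a gene whose loss causes Diamond-Blackfan anaemia. The highest were Rplp1 (1986 CPM per kb), a stalk protein, Rps15 (1873) and Rpl4 (1831). In the families of Rps15a, Rpl21 and Rps19, 94.4, 96.2 and 93.2% of the reads were on pseudogenes, and in those of Rplp1, Rps15 and Rpl4 8.6, 1.61 and 0.791%. With those reads added, the quartiles differed by 2.77-fold, and the range narrowed from 411-fold to 26.1-fold. The lowest families were then Rpl36a (83.4 CPM per kb), Rps15a (86.5) and Rps19 (93.3), and the highest Rplp1 (2173) and Rps3a1 (2056). Across the 77 genes, the level per kb of the gene alone ran against the share of reads on pseudogenes (Spearman's rho -0.754, given as a description, since both are computed from the same reads).

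**Figure D1:**
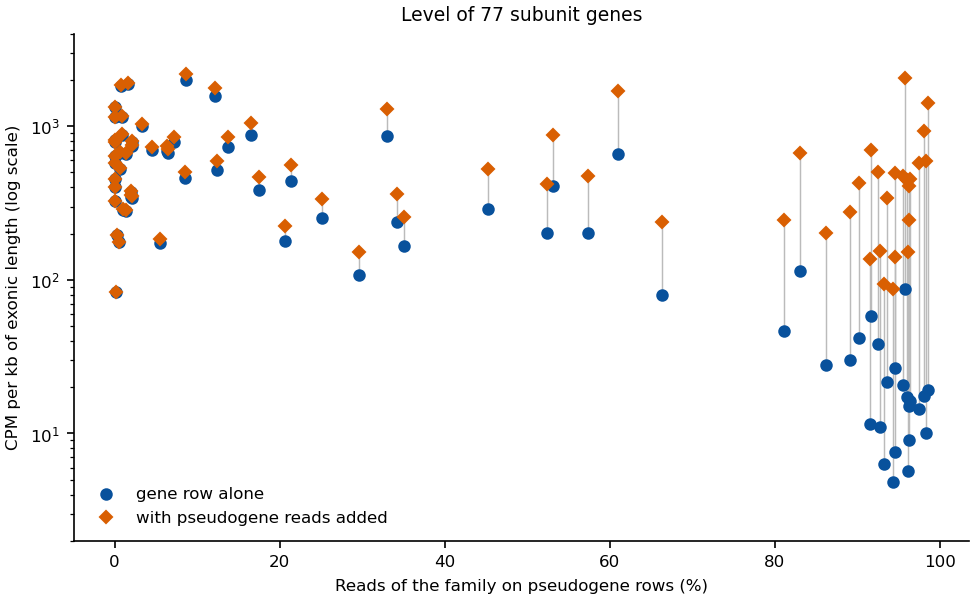
Level of the 77 subunit genes in CPM per kb of exonic length (log scale, mean of 8 libraries) against the percentage of reads of the family that lay on pseudogenes. Circles are the gene alone and diamonds the gene with its matching pseudogenes. The 21 families with over 90% on pseudogenes hold most of the lowest circles. Their diamonds run from 86.5 (Rps15a) to 2056 CPM per kb (Rps3a1), and several are still among the lowest.

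The first comparison asked what 2 h of BET inhibition did to these messages, averaged over both lines. Most of them were slightly higher with JQ1. Of the 89 genes tested, 57 were higher with JQ1 (64%, against 30.7% of all 12413 genes tested), 1 was lower (31.3% of all genes) and 31 did not pass the threshold of 0.05 on the adjusted p of edgeR's quasi-likelihood test. The subunit genes gave 52 higher and 0 lower of 77, with a median log2 change of 0.11, which is 1.08-fold. Of the small subunit 25 of 31 were higher, of the large subunit 27 of 46, and of the paralogs 5 of 11 with 1 lower. The rises were small: 1 of the 89 passed the threshold with a log2 change of at least 0.5 in size, Rpl3l, which fell, against 24.2% of all genes. The median over all genes tested was 0.00. Among genes that averaged 100 CPM or more, where small changes can be seen, all 64 ribosomal protein genes had a positive log2 change and 52 were higher, and of the 2268 other genes 939 were higher and 682 lower, with a median of 0.04.

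Adding the pseudogene reads made the pattern more even. Of the 77 families, 66 were higher with JQ1 and 0 lower (31.4 and 31.6% of the 12139 genes of that fit), with log2 changes from 0.02 (Rpl17) to 0.26 (Rps2) and a median of 0.12. The subunit genes that had stood below 0 on their own moved to positive values. Rps3a1 went from -0.21 ± 0.117 (adjusted p = 0.125) to 0.08 ± 0.0276 (adjusted p = 0.019), Rpl11 from -0.09 to 0.08, and Rps6 from -0.01 to 0.09. Of the 568 pseudogenes 274 were themselves tested, and 87 of these were higher with JQ1 and 1 lower (30.7 and 31.3% of all genes), so that the share higher was near that of all genes; their median was 0.11. Leaving out 1 library at a time gave 47 to 70 families higher and 0 lower. For single genes the count was 37 of 89 without line 1.1 JQ1 replicate 1, and 55 of 89 without line 1.1 DMSO replicate 2, with 1 lower in each.

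The size of the shift measured from 0 depended on the scaling between libraries, and the median of all genes moved with it. With library totals in place of TMM factors, 29 of the 89 genes were higher and 2 lower, and the median of the subunit genes was 0.06 while that of all genes was -0.04. With upper quartile scaling 43 were higher and 1 lower, with a median of 0.09 for the subunit genes and -0.01 for all genes. TMM factors computed without the ribosomal protein genes gave 57 and 1 again. These are changes relative to the other messages of a library: a shift in the whole mRNA content of the cells is invisible to them, and fewer cells of a kind and less message per cell cannot be told apart.

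**Figure D2:**
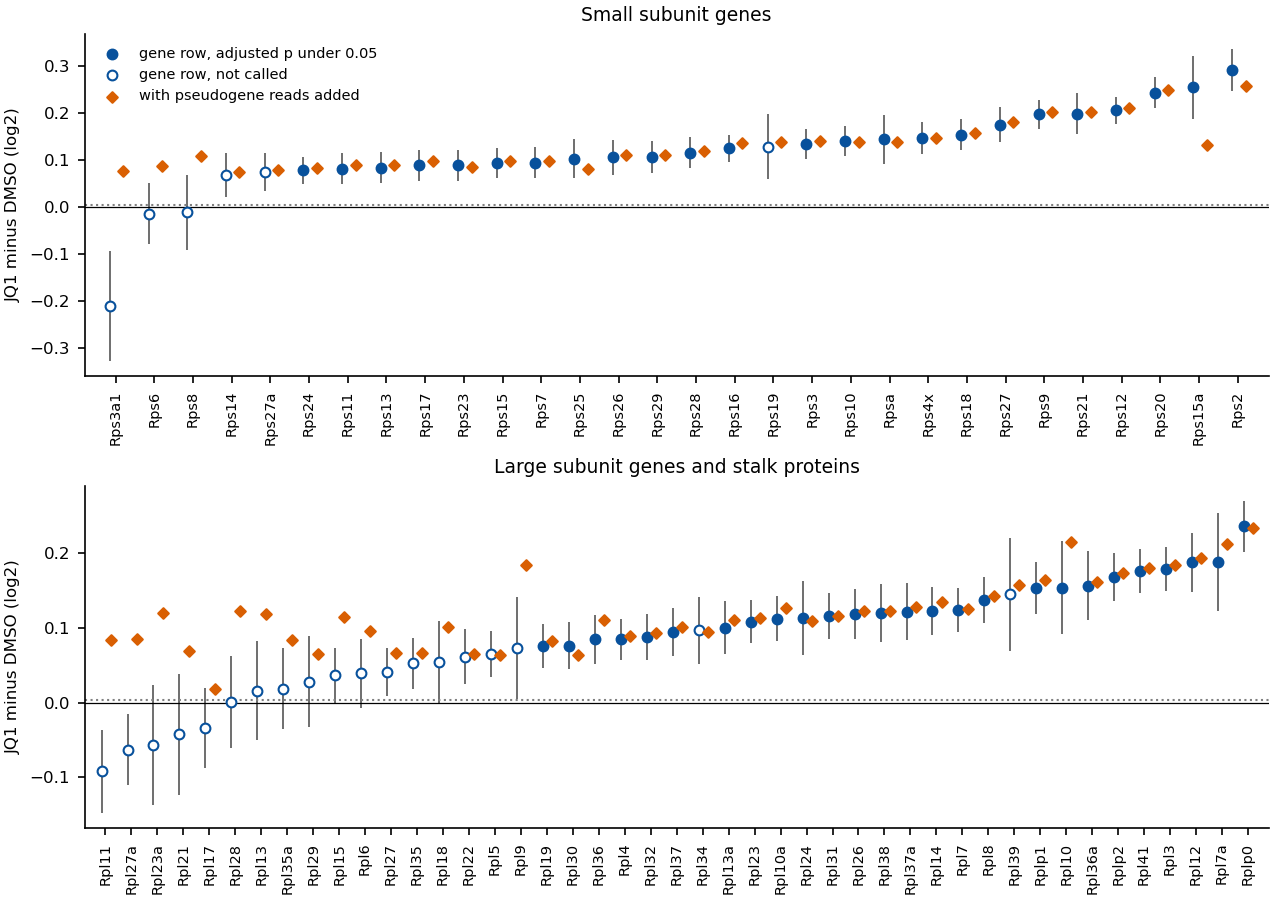
Log2 change with JQ1, averaged over both lines, of 75 subunit genes, 30 small and 45 large. Circles with SE bars are the gene alone, filled where the adjusted p of edgeR's quasi-likelihood test was under 0.05, and diamonds are the gene with its pseudogene reads added. The dotted line is the median of all genes tested. All diamonds lie above 0, from 0.02 to 0.26, and the circles below 0 belong to genes not called.

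As a share of all gene counts, the 92 genes together took 5.22 and 5.08% in the line 1.1 DMSO libraries and 5.6 and 5.42% in the line 1.1 JQ1 libraries. In line 1.2 they took 5.7 and 5.64% in DMSO and 6.0 and 5.84% in JQ1. In each line both JQ1 libraries were above both DMSO libraries, and line 1.2 was above line 1.1 under each condition. The 77 subunit genes with their pseudogenes took 7.69 and 7.55% in line 1.1 DMSO, 8.25 and 8.01% in line 1.1 JQ1, 8.41 and 8.3% in line 1.2 DMSO, and 8.88 and 8.67% in line 1.2 JQ1. The order of the groups was the same by both measures, and as sums over the genes these shares are descriptions with no test.

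**Figure D3:**
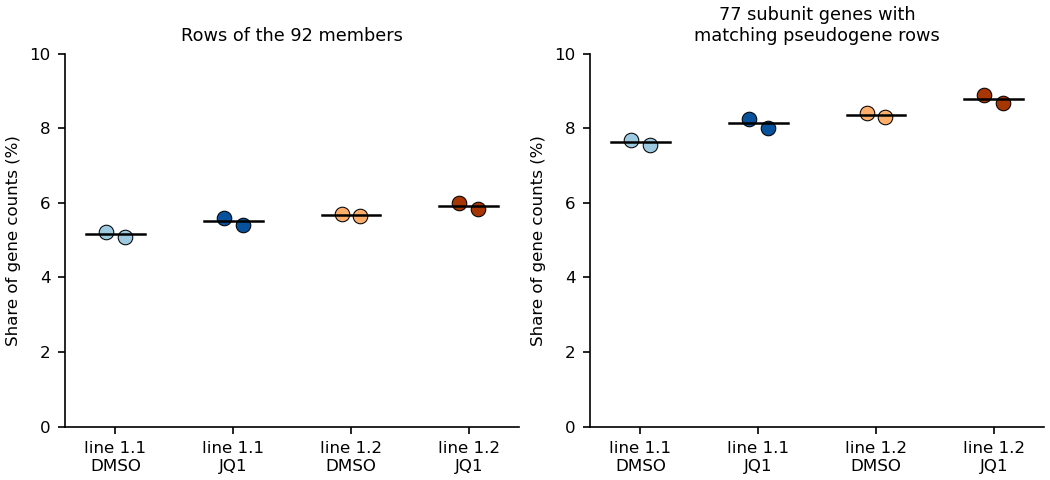
Share of gene counts in percent, by group, for the 92 genes (left) and for the 77 subunit genes with their matching pseudogenes (right). Points are libraries and lines are means of 2. The JQ1 libraries lie above the DMSO libraries of the same line, from 5.08 to 6.0% on the left and from 7.55 to 8.88% on the right.

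Among small subunit genes, Rps2, which lies near the mRNA entry channel, had the largest rise. It read 93.7 and 92.7 CPM in line 1.1 DMSO and 123.6 and 115 CPM with JQ1, and 90.1 and 104.2 CPM in line 1.2 DMSO and 114 and 113.4 CPM with JQ1. The JQ1 libraries were above the DMSO libraries of both lines, a log2 change of 0.29 ± 0.0438 (SE, adjusted p = 3.29e-06). With pseudogenes, which held 91.7% of the family's reads, it was 0.26 ± 0.0283. Rps20, a protein of the head of the subunit, rose from 1184 and 1114 to 1431 and 1318 CPM in line 1.1 and from 1288 and 1300 to 1545 and 1486 CPM in line 1.2. Its log2 change was 0.24 ± 0.0328 (adjusted p = 6.62e-07), and 0.0081% of its family's reads were on pseudogenes.

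Rps12 rose from 1592 and 1621 to 1850 and 1801 CPM in line 1.1 and from 1744 and 1682 to 2000 and 2010 CPM in line 1.2, a log2 change of 0.21 ± 0.0288. Rps9, a protein of early assembly, rose by 0.20 ± 0.0312 on the log2 scale and Rps21 by 0.20 ± 0.0433. In both genes every JQ1 library was above the DMSO libraries of its own line. Rps15a had a log2 change of 0.25 ± 0.0668, but at 30.3 CPM, and 0.13 with pseudogenes added. Rpsa, the laminin receptor homologue of the small subunit, had 43.0 and 42.2 CPM in line 1.1 DMSO and 50.5 and 46.2 CPM with JQ1. Its averaged change was 0.14 ± 0.052 (adjusted p = 0.0195). The Rpsa family, at 1828 CPM and with 97.5% of its reads on pseudogenes, gave 0.14 ± 0.0292 (adjusted p = 0.000236).

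Other small subunit genes changed less. Rps27, a zinc finger protein of the subunit, rose by 0.18 ± 0.0379 on the log2 scale. Rps14, which is lost in human 5q- syndrome, read 820 and 659 CPM in line 1.1 DMSO, 870 and 816 CPM in line 1.1 JQ1, 899 and 876 CPM in line 1.2 DMSO and 892 and 821 CPM in line 1.2 JQ1. Its groups overlapped in both lines, and the averaged change of 0.07 ± 0.0463 did not pass (adjusted p = 0.209). Without line 1.1 DMSO replicate 2 it was -0.01. Rps19 had 23.8 to 31.3 CPM in DMSO and 29.0 to 32.0 CPM in JQ1, a change of 0.13 ± 0.0683 (adjusted p = 0.106). Its family, at 437 CPM, gave 0.14 with an adjusted p of 0.000509. Of 23 genes of the table linked to Diamond-Blackfan anaemia, an inherited red cell aplasia, 13 were higher with JQ1 and 0 lower (30.7 and 31.3% of all genes).

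On the large subunit, the stalk proteins, which recruit the translation factors, all rose. Rplp0, the base of the stalk, went from 985 and 925 to 1216 and 1123 CPM in line 1.1 and from 1062 and 1057 to 1241 and 1158 CPM in line 1.2. Its log2 change was 0.24 ± 0.034 (adjusted p = 1.82e-06), and no JQ1 library overlapped a DMSO library of its line. Rplp2 rose by 0.17 ± 0.032 and Rplp1 by 0.15 ± 0.0348 on the log2 scale. Rplp1 overlapped in line 1.1, with 908 and 995 CPM in DMSO and 1062 and 980 CPM in JQ1.

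Rpl10, which joins the subunit late in its assembly, rose by 0.15 ± 0.0623 (adjusted p = 0.0358) at 35.4 CPM. The Rpl10 family, at 915 CPM and with 96.1% of its reads on pseudogenes, gave 0.22 ± 0.0404 (adjusted p = 5.74e-05). Rpl4, at 3675 CPM, rose by 0.08 on the log2 scale.

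Rpl5 and Rpl11 form, with 5S ribosomal RNA, the particle that restrains Mdm2 and so stabilises p53 when ribosome assembly fails. Neither passed the threshold alone. Rpl5 gave 0.07 ± 0.0304 (adjusted p = 0.0661), and Rpl11, at 55.6 CPM, gave -0.09 ± 0.055 (adjusted p = 0.151). The Rpl11 family, at 1270 CPM and with 95.6% of its reads on pseudogenes, gave 0.08 ± 0.0288 (adjusted p = 0.0135). The Rpl5 family, with 57.4% of its reads on pseudogenes, gave 0.06 ± 0.0282 and did not pass (adjusted p = 0.0506). Of the other genes of this arm, Trp53 fell by 0.25 and Mdm4 by 0.25 on the log2 scale, and Mdm2 gave -0.11 (adjusted p = 0.0643).

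The paralogs with proteins of their own moved in different ways. Rpl22l1, a paralog that can take the place of Rpl22, read 101.9 and 69.5 CPM in line 1.1 DMSO and 127.7 and 113.6 CPM with JQ1. In line 1.2 it read 114.8 and 118.3 CPM in DMSO and 123.3 and 113.4 CPM with JQ1. The groups were apart in line 1.1 and overlapped in line 1.2, and the averaged change was 0.25 ± 0.0681 (adjusted p = 0.00258). Without line 1.1 DMSO replicate 2 it was 0.13 and still passed. Rpl22 itself gave 0.06 ± 0.0366 (adjusted p = 0.147). Rps27l, a p53 target in other cells, gave 0.03 ± 0.0409 and Rpl36al gave 0.03 ± 0.034, neither past the threshold. Rpl7l1, a relative of Rpl7 that acts in nucleolar assembly, rose by 0.10 ± 0.0355 (adjusted p = 0.0214).

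Rpl3l, the striated muscle form of Rpl3, was the only gene of the 89 to fall. It had 1.06 and 1.81 CPM in line 1.1 DMSO and 0.165 and 0.364 CPM with JQ1, and 0.902 and 0.414 CPM in line 1.2 DMSO and 0.0879 and 0.266 CPM with JQ1. The groups did not overlap in either line. Its log2 change of -2.10 ± 0.469 (adjusted p = 0.000428) rests on few reads, and it was not tested under a filter of at least 5 CPM in 2 libraries.

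The remaining paralogs were further copies. Rps27rt, a retrogene whose coding sequence is identical to that of Rps27 over all 255 bases, rose by 0.20 ± 0.0515 at 103.9 CPM (0.14 without line 1.1 DMSO replicate 2); reads of the pair cannot be told apart. Rps3a2 rose by 0.09 ± 0.0297 and Rpl6l by 0.08 ± 0.0304. Rps3a3 (0.06 ± 0.0322), Rpl37rt (0.19 ± 0.0962) and Rps12l1 (0.08 ± 0.254) did not pass, the last 2 with 12.3 and 1.47 CPM. Rps19bp1 gave 0.13 ± 0.067 (adjusted p = 0.0996).

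Taken line by line, the median change was positive in both lines. In line 1.1, 45 of the 89 genes were higher with JQ1 and 1 lower (24.9 and 26.1% of all genes), with a median log2 change of 0.14. In line 1.2, 25 were higher and 2 lower (24.4 and 25% of all genes), with a median of 0.09, so that the share of higher calls in line 1.2 was near that of all genes. The median of the subunit genes in line 1.2 was 0.09. With library totals as scaling it was 0.04, and that of all genes was -0.05. The subunit median was 0.18 with the level of Gm42418, a locus that overlaps ribosomal RNA sequence, as a covariate. The genes called higher in each line were 14, or 15.7%, against 19.5% of all genes, and 1 was lower in each (20.7% of all genes). Both JQ1 libraries were above both DMSO libraries in both lines for 42 of the 89 (47.2%, against 28.8% of all genes), and below for 1 (29.8% of all genes). The counts in single lines moved with single libraries. Line 1.1 had 19 genes higher without its JQ1 replicate 1, and 33 higher and 1 lower without its DMSO replicate 2, where the subunit median was 0.10. Line 1.2 had 14 without its DMSO replicate 2 or without its JQ1 replicate 1, and 40 without either DMSO library of line 1.1, which enters only the shared estimate of the spread.

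With pseudogene reads added, 51 of 77 families were higher in line 1.1 and 39 in line 1.2, with none lower in either (25.7 and 25.2% of all genes were higher in lines 1.1 and 1.2, and 26.4 and 25.3% lower). Both changes were positive for 72 of 77 families, and for 59 of 77 genes taken alone. The family count fell to 21 in line 1.1 without JQ1 replicate 1, and in line 1.2 to 16 without DMSO replicate 2, 18 without JQ1 replicate 1 and 25 without JQ1 replicate 2. The size of the change in a gene in line 1.1 said little about its size in line 1.2. Across the 77 genes Pearson's r was 0.135 and across the families 0.00, whereas over all genes tested it was 0.853. The ranges are unlike: 0 subunit genes were called with an averaged log2 change of at least 0.5 in size, against 24.2% of all genes. A low r over so narrow a range cannot say whether the lines respond differently. These correlations are across genes, which are not independent replicates.

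**Figure D4:**
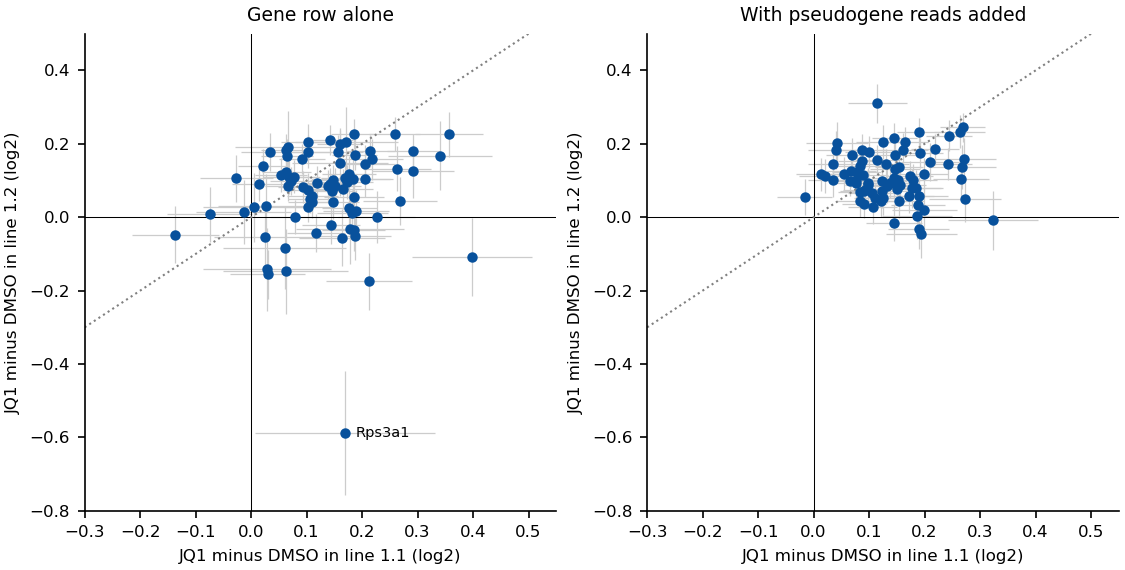
Log2 change with JQ1 in line 1.2 against that in line 1.1 for the 77 subunit genes, alone (left) and with pseudogene reads added (right); bars are SE and the dotted line marks equal changes. Points gather above 0 on both axes without following the dotted line, and Rps3a1 stands apart on the left and not on the right.

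Rps3a1 was the subunit gene called lower in line 1.2, with a log2 change of -0.59 ± 0.169 (adjusted p = 0.00555). Its values were 82.5 and 87.5 CPM in line 1.1 DMSO, 99.0 and 91.6 CPM in line 1.1 JQ1, and 96.9 and 95.8 CPM in line 1.2 DMSO. In line 1.2 JQ1 they were 39.2 CPM in replicate 1 and 89 CPM in replicate 2. A single library was low, and 7 of the 8 values lay between 82.5 and 99.0 CPM. The pseudogenes Rps3a2 and Rps3a3 had 1228 and 560 CPM in that same library, their highest values of all 8. The family read 2039 and 2004 CPM in line 1.2 DMSO and 2115 and 2126 CPM in line 1.2 JQ1, a log2 change of 0.07 ± 0.039 that did not pass (adjusted p = 0.144).

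A test of the difference between the lines in their JQ1 effect called 0 of the 89 genes in edgeR's quasi-likelihood test (0.113% of all genes were called). DESeq2 and limma-voom also called 0, and 14 had an unadjusted p under 0.05 in edgeR's test. The median difference of the subunit genes, line 1.2 minus line 1.1, was -0.06, and it turned to 0.06 in the fit with the Gm42418 covariate. Without line 1.1 DMSO replicate 2 it was -0.02, with 0 genes called. The smallest p-values were those of Rpl35a (-0.39 ± 0.109, adjusted p = 0.27) and Rpl22l1 (-0.46 ± 0.136, adjusted p = 0.327). In the Rpl35a family, with 91.6% of its reads on pseudogenes, the difference was -0.08 ± 0.0619 (adjusted p = 0.784). Both genes were low in line 1.1 DMSO replicate 2, Rpl35a with 34.7 CPM against 38.5 CPM in replicate 1. Without that library the differences of the 2 genes were -0.32 and -0.23. Without line 1.1 DMSO replicate 1, which leaves only that low library as the DMSO value of line 1.1, 16 genes were called lower and 1 higher.

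Without JQ1, ribosomal protein genes tended to be higher in line 1.2 than in line 1.1, relative to the other messages of a library. In DMSO, 27 of the 89 genes were higher in line 1.2 (30.3%, against 3.59% of all genes) and 0 lower (3.17% of all genes), with a median log2 difference of 0.11. Those with the largest differences included Rpl39, Rpl22l1, Rps27rt, Rps27a and Rpl36a, with log2 differences from 0.44 (Rpl39) to 0.29 (Rpl36a). Rpl39, a small protein where the nascent chain leaves the ribosome, had 111.1 and 73.3 CPM in line 1.1 and 125.9 and 126.2 CPM in line 1.2 (adjusted p = 0.0142). Rps27a, made as a fusion with ubiquitin, had 982 and 845 CPM in line 1.1 and 1128 and 1118 CPM in line 1.2 (log2 difference 0.30 ± 0.0565, adjusted p = 0.00134). Rpl36a had 128.4 and 106.2 CPM against 139.9 and 147.5 CPM. Line 1.1 DMSO replicate 2 was the lowest library for each of these, and both line 1.2 libraries were above both of line 1.1. Without that library the log2 difference was 0.18 for Rpl39 (adjusted p = 0.0956) and 0.16 for Rpl36a (adjusted p = 0.0583), which no longer passed. It was 0.19 for Rps27a, 0.24 for Rps27rt and 0.19 for Rpl22l1 (adjusted p = 0.00452, 0.0129 and 0.0447).

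Single libraries weighed on these calls too. Without line 1.1 DMSO replicate 2, 13 of the 89 genes were higher and 0 lower. The count higher was 6 without line 1.2 DMSO replicate 1 and 9 without line 1.2 DMSO replicate 2. DESeq2 called 9 higher, and 11 were higher in a fit of only the 4 DMSO libraries. Reads of Gm42418 took 0.0365 and 0.0987% of counts in line 1.1 DMSO replicates 1 and 2 and 0.0388 and 0.0348% in line 1.2 DMSO. With that level as a covariate 14 genes were higher, and its part in the difference was not tested further. With pseudogene reads added, 31 of 77 families were higher in line 1.2 and 0 lower (3.57 and 3.33% of all genes), with a median of 0.13. That count was 26 without line 1.1 DMSO replicate 2, 6 without line 1.2 DMSO replicate 1 and 10 without line 1.2 DMSO replicate 2. For 64 of the 77 families both DMSO libraries of line 1.2 were above both of line 1.1.

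With JQ1, 10 of the 89 genes were higher in line 1.2 and 1 lower (3.49 and 2.92% of all genes), with a median log2 difference of 0.08. Those with the largest differences were Rps23 (0.21 ± 0.0468), Rpl14 (0.19 ± 0.046), Rpl32 (0.19 ± 0.0433), and Rps16, Rps15 and Rpl37, each at 0.17. The gene called lower was Rps3a1. Leaving out a single library gave between 0 and 27 higher, 0 of them without line 1.2 JQ1 replicate 1 and 26 without line 1.1 DMSO replicate 2, so no count is firm here. With pseudogene reads added 18 families were higher and 0 lower (3.55 and 3.07% of all genes), and between 0 and 40 when a library was left out.

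**Figure D5:**
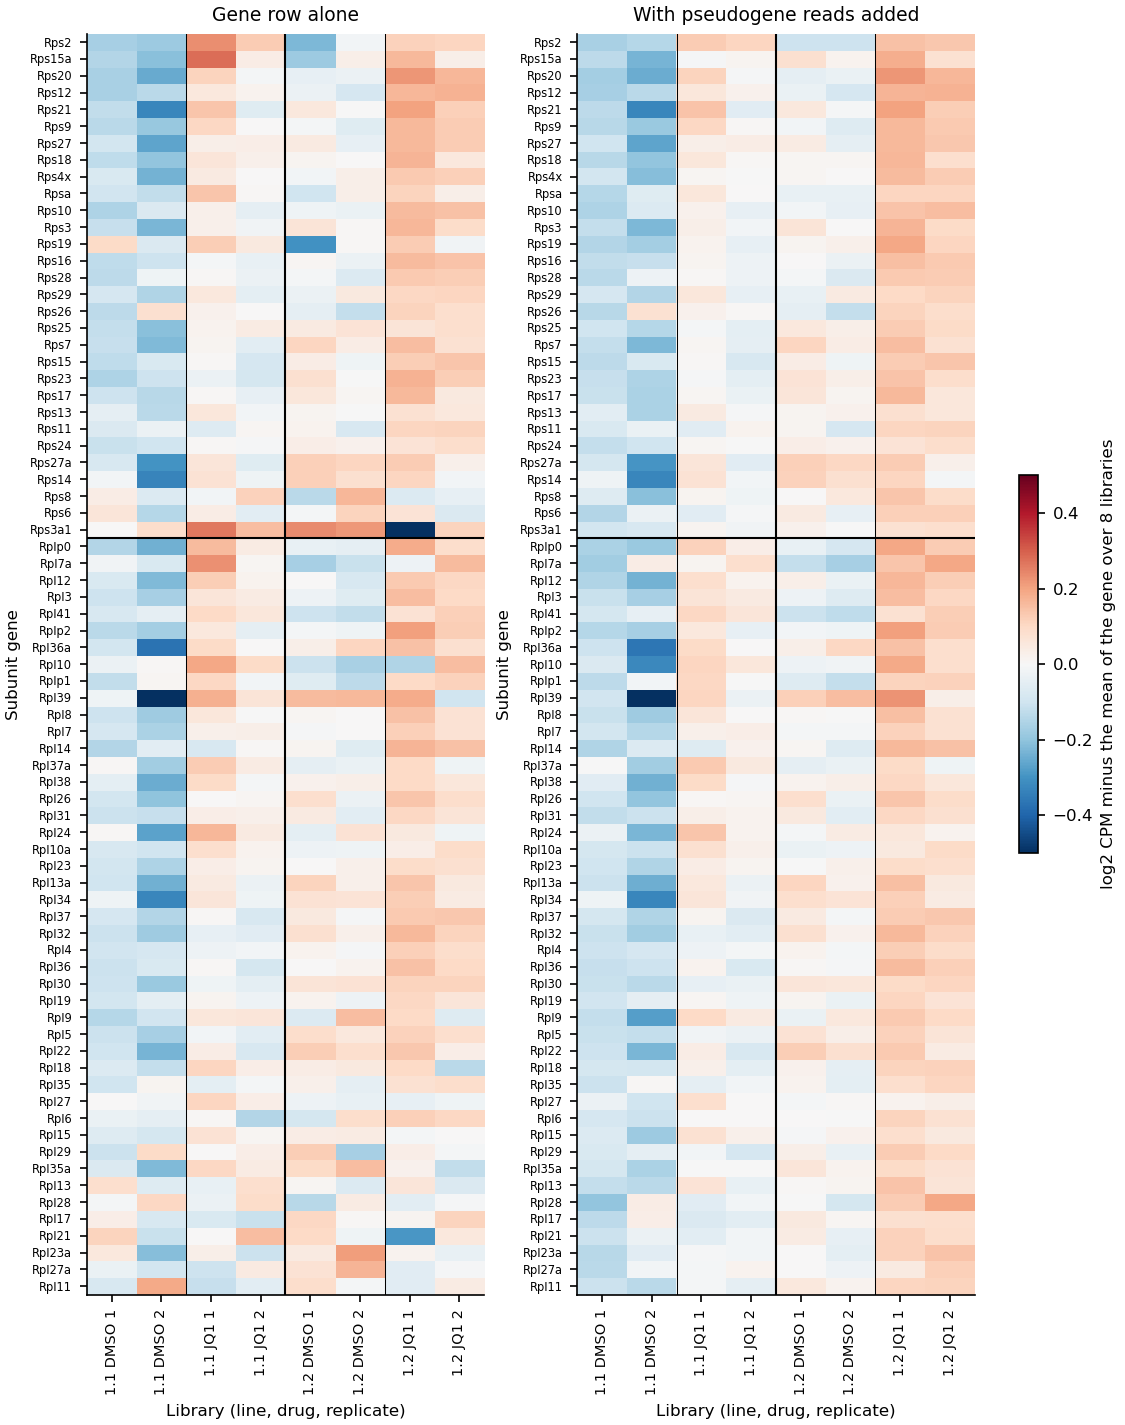
Log2 CPM of 75 subunit genes in each library, minus the mean of that gene over the 8 libraries, for the gene alone (left) and with pseudogene reads added (right); small subunit genes are above the horizontal line and genes are ordered by their averaged JQ1 change. The line 1.1 DMSO columns are the bluest, replicate 2 above all, and the line 1.2 JQ1 columns the reddest. The dark cell of Rps3a1 in line 1.2 JQ1 replicate 1 is absent on the right.

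Genes that work with the ribosomal proteins were read from the same fit. Among ribosomal and ribosome-bound proteins outside the symbol rule, Fau, which is processed to the protein of the small subunit called eS30, rose by 0.10 ± 0.0318, and Rack1, a scaffold on the small subunit, rose by 0.13 ± 0.0298. Of 22 tested translation factors and other genes with TOP messages, 13 were higher and 3 lower (30.7 and 31.3% of all genes), with a median of 0.12. Eef2, the elongation factor of translocation, rose by 0.25 ± 0.029 at 6275 CPM. Pabpc1, the poly(A)-binding protein, rose by 0.29 ± 0.0352 and Tpt1, a small growth-linked protein, by 0.21 ± 0.0293. Hnrnpa1, a splicing regulator with a TOP message, fell by 0.43 ± 0.0298 on the log2 scale.

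Of the chaperones and loading factors of ribosomal proteins, 3 of 14 tested were higher and 7 lower, beside 30.7 and 31.3% of all genes, with a median of -0.12. Ltv1, a small subunit assembly factor, fell by 0.67 ± 0.0436 and Brix1, a large subunit assembly factor, fell by 0.39 ± 0.0371 on the log2 scale. Aamp, the relative of a yeast chaperone of Rpl10, rose by 0.21 ± 0.0366, and Znhit3, a snoRNP assembly factor, rose by 0.30 ± 0.0706. Of 15 tested genes of mTOR signalling and TOP message control, 8 were higher and 5 lower, the latter a share near the 31.3% of all genes (30.7% were higher). Eif4ebp2, a repressor of cap-dependent initiation, rose by 0.41 ± 0.0347 and Pdcd4, an inhibitor of the helicase eIF4A, by 0.42 ± 0.0556. Mtor fell by 0.27 ± 0.0371 and Eef2k, the kinase that restrains Eef2, by 0.37 ± 0.0435 on the log2 scale. All of these lists were read for the averaged JQ1 effect.

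Several ribosomal protein genes carry small nucleolar RNA genes in their introns. The 30 subunit genes with such a gene inside had 20 higher with JQ1 and a median of 0.10, and the 47 without had 32 higher and a median of 0.11. The uniqueness of the sequence made a similarly small difference to the change. The 20 genes with under 25% unique stretches of 50 bases had a median of 0.09, the 30 with 25 to 60% had 0.12, and the 27 with over 60% had 0.11.

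Promoter windows from RefSeq (GRCm38.p6, 250 bases before to 50 after each start) were found by symbol for 57 of the 77 subunit genes. They are shown because these genes moved together and because TOP messages start at a defined pyrimidine. The letters CTTTT with their C within 5 bases of the start on the sense strand were in 3 (5.26%, against 1.62% of 27025 genes with a window), Rps6, Rpl12 and Rpl27a. A run of 8 bases that are each C or T, within 20 bases of the start on the same strand, was in 28 (49.1%, against 18.4%). CCGGAAG, the core bound by ETS family factors, was on either strand in 24 (42.1%, against 9.93%). AAGATGG was in 15.8% (7.28% of all), CACGTG, the E-box that Myc and its relatives bind, in 10.5% (8.09% of all), and TATAAA in 10.5% (15.7% of all), both strands. The motifs were counted independently of each other, so 1 window can hold several. The windows below run from 60 bases before to 20 after the RefSeq start, read on the gene's strand, and capitals mark CTTTT near the start in the first pair and CCGGAAG in the next 4. The last pair has neither.
Rps6: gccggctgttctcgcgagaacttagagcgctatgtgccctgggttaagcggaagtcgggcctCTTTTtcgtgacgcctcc
Rpl27a: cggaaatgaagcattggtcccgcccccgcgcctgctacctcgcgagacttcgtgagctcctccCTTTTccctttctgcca
Rps21: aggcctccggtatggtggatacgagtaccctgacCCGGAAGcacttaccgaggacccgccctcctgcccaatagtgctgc
Rpl11: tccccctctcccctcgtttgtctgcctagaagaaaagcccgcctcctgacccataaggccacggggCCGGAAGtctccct
Rpl26: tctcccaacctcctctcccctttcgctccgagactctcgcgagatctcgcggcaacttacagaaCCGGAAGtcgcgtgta
Rps3a1: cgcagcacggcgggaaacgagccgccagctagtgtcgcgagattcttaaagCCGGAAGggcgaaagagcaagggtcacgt
Rplp0: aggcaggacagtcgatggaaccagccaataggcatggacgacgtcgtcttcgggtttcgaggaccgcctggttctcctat
Rps9: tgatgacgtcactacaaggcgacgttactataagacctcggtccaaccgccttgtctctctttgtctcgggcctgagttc

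These windows lie at chr4:86857348-86857427 (minus strand) for Rps6, chr7:109519135-109519214 (plus) for Rpl27a, chr2:180257319-180257398 (plus) for Rps21 and chr4:136053374-136053453 (minus) for Rpl11. The others lie at chr11:68901506-68901585 (plus) for Rpl26, chr3:86142649-86142728 (minus) for Rps3a1, chr5:115559407-115559486 (plus) for Rplp0 and chr7:3703981-3704060 (plus) for Rps9. The JQ1 change differed little with these letters. The 24 genes with CCGGAAG had 15 higher and a median of 0.10, and the 33 without had 24 higher and a median of 0.11. The 28 with a pyrimidine run had 17 higher and a median of 0.10, and the 29 without had 22 higher and a median of 0.12. The 6 with CACGTG had 4 higher and a median of 0.10. Of the 3 with CTTTT, Rpl12 rose by 0.19 and Rps6 and Rpl27a gave -0.01 and -0.06, with 98.1 and 93.6% of the reads of their families on pseudogenes. A match is a description of these letters and not a measured binding site.

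The genes outside the 92 whose profile over the 8 libraries was most like the mean profile of the ribosomal protein genes were looked for among 4253 genes that averaged 50 CPM or more. The closest were Rpsa-ps10 (Pearson's r = 0.988), Gm5451 (0.987), Gm10275 (0.985), Rpsa-ps1 (0.985) and Rack1 (0.98). The first and the fourth are named pseudogenes of Rpsa, Gm5451 and Gm10275 match Rpl9 and Rpl12, and Rack1 was the closest gene that is no such copy. With 8 libraries in 4 groups these values are descriptions.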

How the data were processed

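The 92 genes and all gene lists were chosen with earlier results of these data known. RNA-seq counts came from 8 libraries of lines 1.1 and 1.2, 2 per group, grouped by their labels. The deposited values are whole-number counts of reads per gene that the authors did not normalise. Tools named in the submitters' processing notes are TopHat with Bowtie2, HTSeq, cutadapt 1.7, FastQC and limma, and the build is GRCm38 (mm10). Per the labels' protocols, libraries were made with a TruSeq RNA kit. Annotation release, read length and strand setting are not given in the sources used; without the last, a gene's reads and those of an antisense partner cannot be separated. HTSeq summary lines, which name no gene, were left out. Reads assigned to no gene were 12.3 to 14.4% and ambiguous reads 1.54 to 1.67%.

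From these counts all other values were computed, with R 4.3.3. Symbols were matched by identifier for 42462 of 43629 genes. Coordinates, gene types and exonic lengths are from GENCODE M21 (GRCm38). edgeR 4.0.16 tested 12413 genes kept by filterByExpr (minimum count 10, minimum total 15) with TMM scaling, 4 group means over all 8 libraries and 4 residual degrees of freedom. Quasi-likelihood F tests were two-sided, with Benjamini-Hochberg adjustment over all genes tested and a threshold of 0.05. All adjusted p-values are of this kind. Changes are log2 ± SE, with the SE derived from the F statistic, and JQ1 changes are averages over both lines where no line is named. CPM uses TMM-scaled library sizes. In the added family counts, each GENCODE pseudogene sharing at least 20 coding 50-mers with a subunit gene was summed into the gene it shared most with, and the fit was repeated.

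Genes were named by a rule: the 10 largest averaged rises and falls past the threshold with at least 5 CPM, the 6 largest line differences each way, 2 for the interaction, every tested paralog, a set of well-known members, the 3 highest and 3 lowest levels per kb, up to 4 genes per other list by p, and the 5 most alike profiles. Rps3, Rpl12, Rpl17, Rpl23, Rpl26, Rpl27a, Trp53, Mdm2 and Mdm4 and the pseudogenes were named after their values were seen. A few genes are not reported here by name. Same-numbered replicates did not deviate together (correlations from -0.0301 to 0.0784), so no block was used. Alternatives were other scalings, DESeq2 1.42.0, limma-voom (limma 3.58.1), other filters, a replicate block, Gm42418 as a covariate, a threshold of 0.01, only the libraries compared, and each library left out. The fit was tested on simulated counts.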

Additional observations from a re-analysis of the deposited data

How the results depend on the processing

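With 4 residual degrees of freedom and line-averaged rises of subunit genes of at most 1.22-fold, the counts of called genes moved more than the medians. Averaged over the lines, the count of 57 higher was 36 at a threshold of 0.01 and 29 with library totals, where 2 were lower and the subunit median was 0.0623. With Gm42418 as a covariate the median was 0.14 and 3 were lower. Genes called lower numbered 2 with no filter and 0 with at least 5 CPM in 2 libraries, which removes Rpl3l; leaving out a library gave 37 to 64 higher and 1 to 3 lower. In line 1.1 the stricter filter gave 0 lower, and leaving out a library gave 19 to 50 higher and 1 to 2 lower. In line 1.2, library totals gave 15 higher and 4 lower, upper quartile scaling 4 lower, DESeq2 0 lower, only the libraries compared 41 higher, a threshold of 0.01 15 higher and 1 lower, pseudogene reads added 39 higher and 1 lower over all tested genes of the rule, and the Gm42418 covariate a median of 0.18; leaving out a library gave 14 to 40 higher and 1 to 4 lower. In the interaction, no filter gave 3 lower and the Gm42418 covariate 1 lower with a median of 0.0604; leaving out a library gave 0 to 1 higher and 0 to 16 lower. For line 1.2 against line 1.1 in DMSO, DESeq2 gave 9 higher, the covariate 14, only the libraries compared 11 and a threshold of 0.01 11; leaving out a library gave 6 to 40 higher and 0 to 1 lower. In JQ1, DESeq2 gave 6 higher and 0 lower, no filter 20 higher, the stricter filter 0 lower, the covariate 16 higher with a median of 0.17, only the libraries compared 28 higher and 2 lower, a threshold of 0.01 2 higher and 0 lower, and pseudogene reads added 18 higher and 0 lower; leaving out a library gave 0 to 27 higher and 0 to 2 lower. 4 values changed sign with pseudogene reads added: the averaged change of Rps3a1 to 0.0763, of Rps6 to 0.0865 and of Rpl11 to 0.0842, and the JQ1 line difference of Rps3a1 to 0.0827, with 95.6 to 98.1% of the reads of each family on pseudogenes. The cause of the other moves was not tested. Of the values for single genes under all alternatives, 1096 kept their direction and side of the threshold, 96 lost the call and 30 gained it. With a replicate block, 60 genes were higher and 1 lower for the averaged effect (median 0.11). The labels do not say what a replicate number shares across groups.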
